A study of Canis lupus familiaris with 8 samples.

Results

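The genes of the caveolar coat and neck were read from a strain experiment in MDCK GII, an epithelial line from dog kidney. They are 2 caveolins (CAV1 and CAV2), 3 cavins (CAVIN1, CAVIN2 and CAVIN3) and 2 neck proteins (EHD2 and PACSIN2). The 7 genes were chosen by their symbols, and all 7 are rows of the deposited table of 37952 genes. All 7 were among the 14571 genes that passed the filter on low counts. Monolayers were grown overnight on a collagen-coated silicone membrane, and 4 wells were kept unstrained (control). The membrane under 4 other wells was held at 18% equal strain in both in-plane directions for 2 hours before lysis (stretch). Every well held the same line in the same medium, with no transgene or other agent named. The labels call the wells of a group technical replicates, placed at random on different stretch devices, so p-values measure the spread between wells of 1 line.

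Caveolae are flask-shaped pits of the plasma membrane. Caveolins sit in the inner leaflet as oligomers, cavins form the outer coat on the cytosolic side, and EHD2 and PACSIN2 hold and shape the neck. Caveolae are known to flatten when membrane tension rises, which provides membrane area and releases cavins from the coat. CAV1 and CAVIN1 are each required for caveolae outside muscle, while the muscle forms are CAV3 and CAVIN4.

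The wells held 27047358 to 32478887 counts. The epithelial identity of the label was borne out by KRT8 and KRT18, epithelial keratins with 2622 and 1609 TPM in control wells, and by EPCAM with 713 TPM (TPM is counts per kilobase of exon, scaled to the same total in each well). The 7 epithelial and kidney markers together gave 5060 to 5650 TPM in control wells, and 5310 to 5600 TPM after stretch. The kidney cadherin CDH16 was low, at 0.729 TPM in control wells. Endothelial cells, fibroblasts and muscle cells are rich in caveolae. The 5 endothelial markers summed to 0.604 to 0.933 TPM in control wells, and to 0.513 to 0.937 TPM after stretch, and the 6 fibroblast markers to 0.531 to 1.19 and 0.803 to 1.09 TPM. Of the fibroblast markers, COL1A2, DCN and LUM had 0 counts in all 8 wells. The 4 muscle markers summed to 145 to 183 TPM in control wells, and to 167 to 194 TPM after stretch. ACTA1 gave nearly all of this (162 TPM in control wells). It has close actin relatives whose reads may be shared, which was not tested. MYOD1 had 0 counts in every well. The 3 leukocyte markers summed to 0.613 to 0.86 TPM in control wells, and to 0.512 to 1.22 TPM after stretch, with PTPRC and CD3E at 0 counts. A count of 0 allows up to 3 counts in a well, or 0.0924 to 0.111 CPM (counts per library size after TMM scaling). These limits cover counting error only.

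Levels are those of whole wells, so fewer cells with a transcript and less of it per cell cannot be told apart. In the unstrained monolayer the caveolins were far more abundant per length than the cavins and the neck genes. CAV1, the principal structural caveolin, had 2879, 2893, 2961 and 3066 TPM in control replicates 1 to 4. Its mean of 2950 ± 85.5 TPM (SD, n = 4) ranked 21 of 14571 tested genes. CAV2, which forms mixed oligomers with CAV1, had 816, 829, 783 and 764 TPM (mean 798 ± 29.7, n = 4) and ranked 204. All 4 wells of CAV1 lay above all 4 of CAV2, with means 3.70-fold apart. The CAV1 level rests on a short gene model. It has 537 bases of exon in 3 blocks of 30, 165 and 342 bases, against a median of 2818 bases over tested genes, and 3.92% of tested genes have a model as short or shorter. Its length is a whole number of codons, and the model may hold coding sequence alone. Reads from untranslated parts of the transcript would then be missing from its count and its length, and the rank, the fold gaps to other genes and the ratios to CAV1 all rest on this model. The CAV2 model has 2920 bases. As CPM, without length, the order was the other way round, with 830 ± 25.9 for CAV1 and 1221 ± 43.5 for CAV2 (n = 4 each).

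CAVIN3 and CAVIN1 came next and could not be ordered. CAVIN1, the core coat protein that the other cavins assemble with, had 97.0, 95.4, 114 and 104 TPM in control wells (mean 103 ± 8.43, n = 4). CAVIN3 had 89.0, 105, 124 and 104 TPM (mean 106 ± 14.4), and its wells overlapped those of CAVIN1. Both were separated from CAV2 above them, by 7.55-fold between the means of CAV2 and CAVIN3, and from PACSIN2 below. PACSIN2, which bends membrane through an F-BAR domain, had 34.4, 33.6, 32.2 and 33.2 TPM (mean 33.4 ± 0.934). CAVIN2 had 19.5, 23.3, 26.0 and 32.0 TPM (mean 25.2 ± 5.27), each well below the lowest PACSIN2 well. EHD2, a membrane-bound ATPase of the neck, had 20.9, 20.9, 29.6 and 21.9 TPM (mean 23.3 ± 4.24). It overlapped CAVIN2. The lowest of the 7 thus lay at percentile 58.2 of the tested genes, and the means of CAV1 and EHD2 were 127-fold apart. EHD2 ranked below its relatives EHD1 and EHD4, which had 70.6 ± 2.85 and 57.2 ± 3.75 TPM (n = 4 each). It ranked above EHD3, which had 0.477 ± 0.0808 TPM (n = 4).

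**Figure D1:**
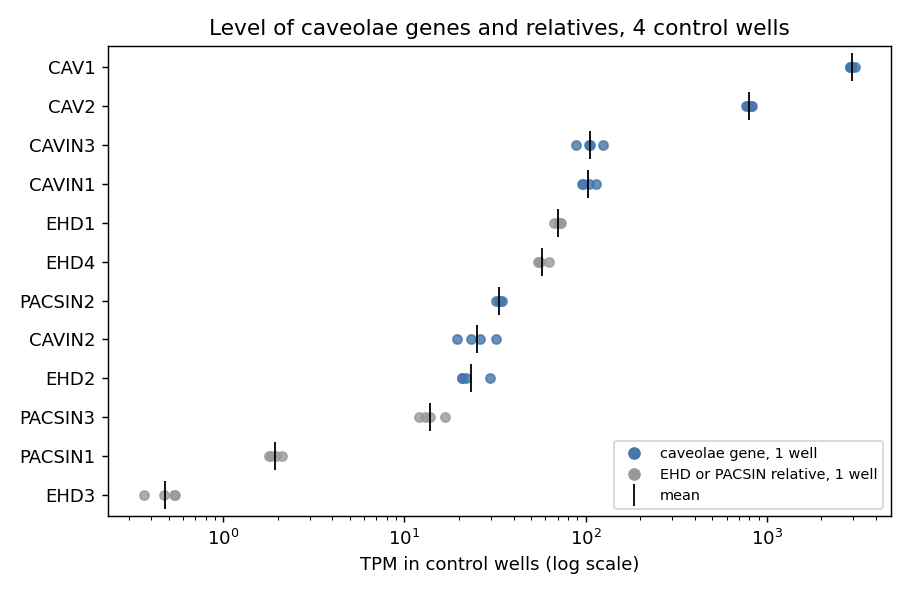
Level of each caveolae gene and of its tested EHD and PACSIN relatives in the 4 control wells, in TPM on a log axis, 1 point per well with the mean as a bar. CAV1 and CAV2 stand apart at 2950 and 798 TPM, while CAVIN3 and CAVIN1, and CAVIN2 and EHD2, overlap.

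The spread between control wells was above counting error for every member, by very different amounts. PACSIN2 came closest, at 3.07% against 2.16%. Whether so small an excess over 4 wells is more than counting noise was not tested. Across control wells the coefficient of variation of the CPM was 3.12% for CAV1, 3.56% for CAV2 and 3.07% for PACSIN2. It was 8.11% for CAVIN1, 13.3% for CAVIN3, 17.9% for EHD2 and 21.1% for CAVIN2. Counting error alone in control wells was lowest for CAV2, at 0.523%, and highest for EHD2, at 3.0%. The least abundant members were therefore not limited by depth, and CAVIN2 varied more between unstrained wells than any other member.

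The 7 genes fall on the plus strand of chromosome 14 (CAV2 at 55567047 to 55574903 and CAV1 at 55590528 to 55622125), the plus strand of chromosome 9 (CAVIN1, 20385360 to 20400256), the minus strand of chromosome 37 (CAVIN2, 2178440 to 2192258), the minus strand of chromosome 21 (CAVIN3, 30169413 to 30171524), the minus strand of chromosome 1 (EHD2, 109023931 to 109042491) and the plus strand of chromosome 10 (PACSIN2, 23469880 to 23606571). Positions are those of the deposited table, which match the dog assembly UU_Cfam_GSD_1.0. CAVIN1, CAVIN2 and CAVIN3 each have 2 exon blocks, EHD2 has 6 and PACSIN2 has 18. The caveolins and cavins overlap no other gene of the table. EHD2 shares 564 exon bases with LOC119870957 on the opposite strand, which had 41 to 91 counts per well, and whether the counting used strand is not given in the sources used here. The EHD2 values are uncertain to that extent. PACSIN2 shares 446 exon bases with LOC111097634 on the opposite strand, which had 0 counts in all wells.

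The stretch comparison asks whether 2 hours of strain changed the transcripts of the coat. In the main fit, without a block for replicate number, no member passed, and CAVIN2 had an adjusted p of 0.999 (edgeR's quasi-likelihood test). CAVIN2 passed in an alternative fit that compares wells within pairs of equal replicate number (edgeR's quasi-likelihood test with the replicate block, adjusted p = 0.00246). Its log2 change there was 0.48 ± 0.07 (SE), and it had more counts under strain in all 4 pairs. Whether equal numbers mark real pairs was not tested. The changes of the other 6 lay between -0.13 and 0.04 without the block, and none of these 6 passed in either fit. Without the block, 0 of the 7 members passed over all genes in edgeR's test, in DESeq2 and in limma-voom, and 0 had an unadjusted p under 0.05 in edgeR. The background over all 14571 tested genes was also 0 (0%) called by edgeR, with 579 (3.97%) at an unadjusted p under 0.05, 40 (0.275%) called by DESeq2 and 0 by limma-voom. With the block, 1 of 7 members passed, higher after stretch, where 77 (0.528%) of all tested genes passed as higher and 25 (0.172%) as lower. The median log2 change of the 7 members was 2.0e-04 against -0.003 over all tested genes.

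CAVIN2 encodes the cavin also known as serum deprivation response protein, which binds phosphatidylserine and has been linked to membrane curvature. In control replicates 1 to 4 it had 31.9, 37.7, 42.2 and 52.4 CPM. In stretch replicates 1 to 4 it had 39.4, 52.2, 71.3 and 67.1 CPM. The groups overlapped, since stretch replicate 1 lay below control replicates 3 and 4, and stretch replicate 2 just below control replicate 4. In both groups replicates 3 and 4 were higher than replicates 1 and 2. Within equal numbers the stretch well was 1.23, 1.39, 1.69 and 1.28 times the control well, the largest ratio being that of replicate 3. All 4 pairs were higher in 8.45% of tested genes, so that direction alone is not rare.

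The CAVIN2 mean went from 41.0 ± 8.64 to 57.5 ± 14.6 CPM (n = 4 each), a difference larger than the SD of either group. Without the block the log2 change was 0.49 ± 0.21, with a 95% interval of -0.01 to 0.98 (edgeR, adjusted p = 0.999). DESeq2 and limma-voom without the block gave CAVIN2 an unadjusted p under 0.05, and neither called it after adjustment. With the block the interval was 0.33 to 0.62, and the gene ranked 26 of 14571 by p. Replicates 1 and 2 alone gave 0.39 on the log2 scale, and replicates 3 and 4 alone gave 0.55. With a block of only 2 levels (replicates 1 and 2, replicates 3 and 4) the change of 0.47 did not pass in edgeR's test (adjusted p = 0.172). Leaving out any 1 pair kept the call with the replicate block, at adjusted p from 0.00018 to 0.0319 in edgeR's test. Over all 24 alternatives the adjusted p of CAVIN2 ranged from 1.5e-06 to 1 (rounded).

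**Figure D2:**
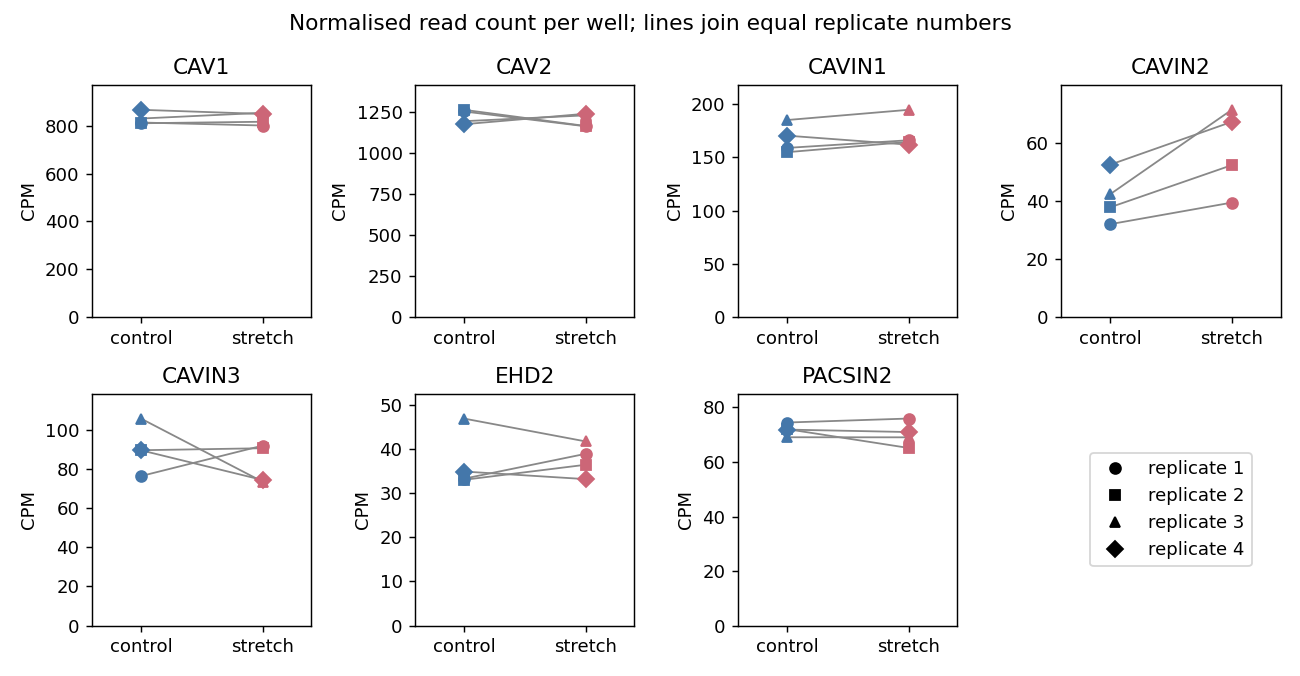
Normalised read count (TMM-scaled CPM, axes from 0) of each caveolae gene in the 4 control and 4 stretch wells, 1 point per well, with lines joining wells of the same replicate number. All 4 lines of CAVIN2 slope upward, those of CAV1 are nearly flat, and those of CAVIN3 and EHD2 cross.

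The caveolins were level. CAV1 had 813, 810, 830 and 867 CPM in control wells and 801, 817, 854 and 849 CPM in stretch wells, and the groups covered nearly the same range. Its log2 change was 2.0e-04 ± 0.039 (SE; edgeR without the block, adjusted p = 0.999), higher in 2 pairs and lower in 2. The 95% interval of -0.08 to 0.08 leaves room for changes from 0.943-fold to 1.06-fold. CAV2 had 1253, 1263, 1193 and 1175 CPM in control wells and 1162, 1164, 1229 and 1239 CPM in stretch wells. In replicates 1 and 2 the stretch wells were lower, and in replicates 3 and 4 they were higher. Its log2 change was -0.03 ± 0.04 over all wells (edgeR without the block, adjusted p = 0.999), with a 95% interval of -0.11 to 0.06. Replicates 1 and 2 alone gave -0.11 and replicates 3 and 4 alone gave 0.065, and this difference was not tested.

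CAVIN1 had 159, 155, 185 and 170 CPM in control wells and 166, 165, 195 and 162 CPM in stretch wells. Replicate 3 was the highest in both groups, and the groups overlapped. The log2 change was 0.04 ± 0.07 (edgeR without the block, adjusted p = 0.999; 95% interval -0.11 to 0.19), with 3 of 4 pairs higher. It was -0.03 without stretch replicate 3. CAVIN3, a cavin that binds protein kinase C delta, had 76.3, 89.5, 106 and 89.5 CPM in control wells and 91.9, 90.5, 73.4 and 74.3 CPM in stretch wells. Stretch replicates 3 and 4 lay below all control wells, and stretch replicates 1 and 2 lay within the control range. The log2 change over all wells was -0.13 ± 0.10 (edgeR without the block, adjusted p = 0.999; 95% interval -0.36 to 0.10). Within replicates 1 and 2 it was 0.14 and did not pass (edgeR, adjusted p = 0.731). Within replicates 3 and 4 it was -0.40 and passed (edgeR, adjusted p = 0.0449), where 0.169% of tested genes passed. CAVIN2 also passed there (edgeR, adjusted p = 0.0377). These fits have 2 wells a group, and the difference of CAVIN3 between the replicate sets was not tested. CAVIN3 passed under no other of its 24 alternatives, whose adjusted p went up to 1 (rounded). With the replicate block and without pair 3 its log2 change was 0.003.

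Of the neck genes, EHD2 had 33.3, 33.0, 46.9 and 34.9 CPM in control wells and 38.9, 36.4, 41.7 and 33.2 CPM in stretch wells. Control replicate 3 lay above all 7 other wells. The log2 change was 0.02 ± 0.11 (edgeR without the block, adjusted p = 0.999; 95% interval -0.23 to 0.27) and 0.16 without that well. Replicates 1 and 2 alone gave 0.18, and replicates 3 and 4 alone gave -0.12. PACSIN2 had 74.5, 72.0, 69.1 and 71.9 CPM in control wells and 75.9, 65.1, 69.0 and 70.96 CPM in stretch wells. The stretch wells enclosed the control range. The log2 change was -0.03 ± 0.06 (edgeR without the block, adjusted p = 0.999), with a 95% interval of -0.16 to 0.09.

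**Figure D3:**
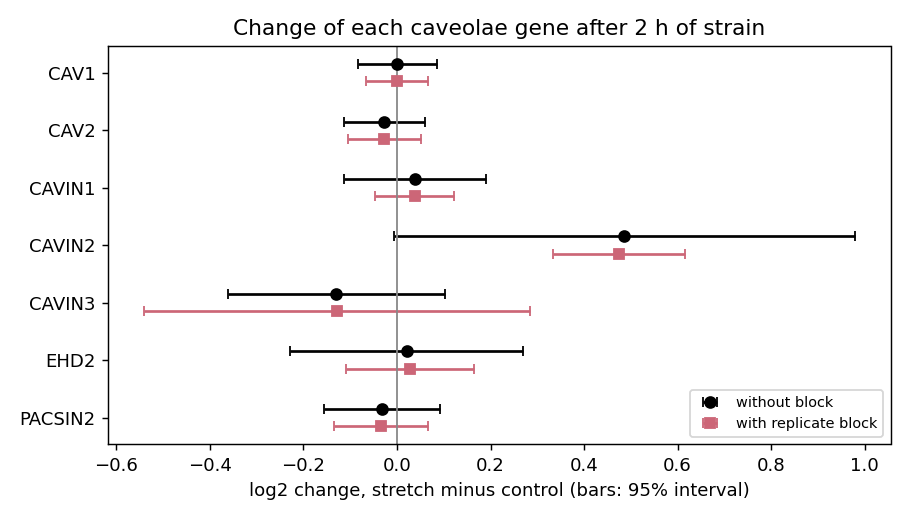
Log2 change of each caveolae gene, stretch minus control, with its 95% interval from edgeR, without the block (circles) and with the replicate number as a block (squares), n = 4 wells a group. The CAVIN2 interval includes 0 without the block and runs from 0.33 to 0.62 with it, while the other 6 intervals include 0 in both fits.

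No member separated the groups completely, where 190 (1.3%) of tested genes were higher and 181 (1.24%) lower in every stretch well than in every control well.

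Ratios within a well do not depend on how libraries are scaled, so each member was also set against CAV1. CAVIN2 stood at 0.678% to 1.04% of the CAV1 TPM in control wells, and at 0.849% to 1.44% after stretch. The means were 0.851 ± 0.153% and 1.19 ± 0.27% (n = 4 each), and the log2 ratio was 0.47 higher after stretch (two-sided exact permutation p = 0.0857, adjusted over 6 ratios 0.514). The ratio was higher in 4 of 4 pairs. The 70 assignments ignore the replicate pairs and allow a smallest p of 0.0286. CAV2 stood at 27.1 ± 1.74% of CAV1 without strain and 26.5 ± 0.269% with it (n = 4 each, exact permutation p = 0.6 and 0.823 when adjusted). For CAVIN1 the ratio was 3.48 ± 0.25% and 3.57 ± 0.271%, for CAVIN3 3.58 ± 0.466% and 3.29 ± 0.499%, for EHD2 0.79 ± 0.14% and 0.802 ± 0.0809%, and for PACSIN2 1.13 ± 0.0558% and 1.11 ± 0.0901%. These 4 log2 ratios differed by -0.13 to 0.04, with adjusted exact permutation p from 0.823 to 0.914.

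The cavins summed to 233 ± 24.9 TPM in control wells and 238 ± 11.9 TPM in stretch wells (n = 4 each), so their total differed by less than the SD of either group. Within that sum the share of CAVIN2 was 9.5%, 10.4%, 9.85% and 13.3% in control replicates 1 to 4 and 10.4%, 13.4%, 17.6% and 18.1% in stretch replicates 1 to 4. The share was higher in 4 of 4 pairs, by little in replicate 1. The mean went from 10.8 ± 1.75% to 14.9 ± 3.67%. CAVIN3 took 45.2 ± 2.12% of the sum in control wells and 40.8 ± 5.37% in stretch wells, and was higher in 1 of 4 pairs. The shares of CAVIN1, 44.1 ± 2.12% and 44.3 ± 2.47%, differed by less than either SD. The shares of a sum are tied to each other and are given with no test. The caveolins summed to 3748 ± 58.7 and 3748 ± 145 TPM.

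**Figure D4:**
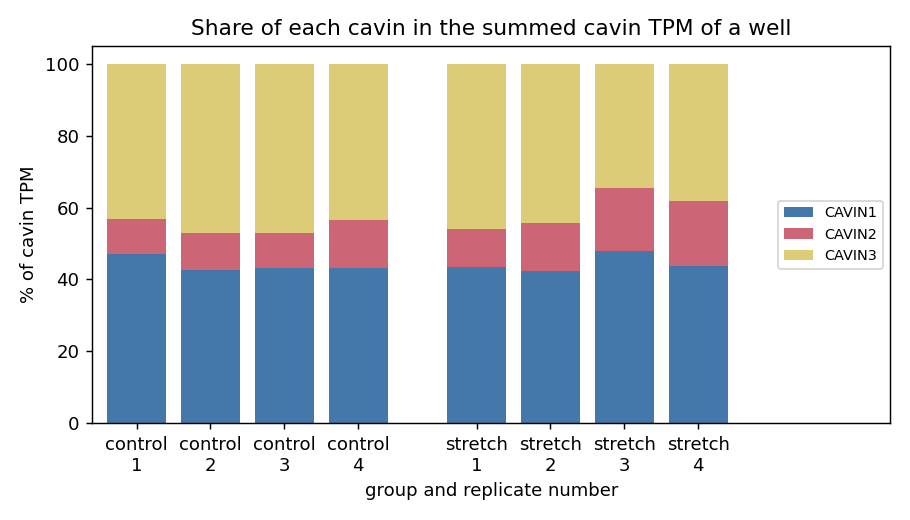
Share of CAVIN1, CAVIN2 and CAVIN3 in the summed cavin TPM of each well, as stacked bars in percent, by group and replicate number. The CAVIN2 share is 9.5% to 13.3% in control wells, and 10.4% to 18.1% after stretch.

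Among 7 relatives of the members, 5 were tested and 0 passed in edgeR's test in either fit. At an unadjusted p under 0.05 there was 1 in each fit. Over all tested genes 0 passed without the block, and 0.528% passed as higher and 0.172% as lower with it. Without the block 3.97% of all tested genes had an unadjusted p under 0.05. The muscle genes CAV3 and CAVIN4 were not tested. CAV3 had 0 counts in every well and CAVIN4 at most 3. PACSIN1, a relative of PACSIN2 best known from neurons, was low, with 4.70, 4.79, 5.52 and 5.10 CPM in control wells and 7.38, 6.76, 5.93 and 6.30 CPM in stretch wells. Every stretch well lay above every control well, as was so for 190 (1.3%) of all tested genes. Its log2 change was 0.39 ± 0.12 without the block and did not pass in either fit over all genes (edgeR, adjusted p = 0.938 without the block and 0.249 with it). It rests on 128 to 215 counts per well. EHD1 and EHD4, which act in endosomal recycling and can also assemble at caveolae, had log2 changes of 0.08 and -0.04. The median over the 5 tested relatives was -0.03.

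A list of 12 genes known to attach, cut, modify or accompany caveolae gave 10 tested genes and 0 calls in edgeR's test in either fit. At an unadjusted p under 0.05 there were 0 when unblocked, and 1 higher and 1 lower with the block. Over all 14571 tested genes that threshold took in 3.97% when unblocked, and 727 higher and 568 lower with the block. ROR1, a receptor reported as a scaffold for CAV1 and CAVIN1, had at most 2 counts in a well. INSR, the insulin receptor gene, had 0 counts in all 8 wells. Its gene model was not examined, so the 0 counts do not show that the transcript is absent. The phosphatase gene PTPN1 had a log2 change of 0.16 ± 0.06 with the block and was higher in 4 of 4 pairs (edgeR with the block, adjusted p = 0.353). ABL1, which encodes a tyrosine kinase, had -0.12 ± 0.04 with the block and was lower in 4 of 4 pairs (edgeR with the block, adjusted p = 0.324). FLOT2, a flotillin of a separate membrane domain, had -0.05 ± 0.04 without the block. FLNA, the actin crosslinker that ties caveolae to stress fibres, had 0.003 ± 0.07 at 1175 CPM in control wells, and DNM2, the dynamin found at endocytic necks, had 0.02 ± 0.05, also without the block.

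The clathrin coat, the other main coat of the plasma membrane, was listed for comparison. All 12 genes were tested and 0 passed in edgeR's test in either fit. At an unadjusted p under 0.05 there were 0 when unblocked and 1, higher, with the block. Of all 14571 tested genes, 727 were higher and 568 lower at that threshold with the block. The log2 changes of the 12 genes lay between -0.03 and 0.16, with a median of 0.02. EPN2, an adaptor gene, had the largest, 0.16 ± 0.08 in both fits (edgeR with the block, adjusted p = 0.55). AP2A2 and EPS15 had 0.07 each. CLTC, the clathrin heavy chain, had 442 ± 16.7 TPM in control wells (n = 4), below CAV1 and CAV2 per length. Without length it was above both, at 1459 CPM.

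CAV1 and CAV2 lie 15.6 kb apart. The nearest tested gene on one side is TES at 55322418 to 55369952, 197 kb from CAV2. On the other side it is MET at 55755770 to 55839237, 134 kb from CAV1. TES, a focal adhesion gene, and MET, the receptor of hepatocyte growth factor, had log2 changes of 0.03 ± 0.05 and 0.01 ± 0.09 (edgeR without the block, adjusted p = 0.999 for each). The likeness of profiles was measured as the root mean square gap between log2 CPM values over the 8 wells, each gene centred on its own mean, among genes with at least 10 CPM on average. The genes nearest to CAV1 were CHD3, TSPAN17 and RPS25, with gaps of 0.0161, 0.0168 and 0.0169. CAV2 ranked 1246 of the 9904 other genes, with a gap of 0.0596. PACSIN2 ranked 3469, CAVIN1 4308, EHD2 8627, CAVIN3 8958 and CAVIN2 9826. The median gap was 0.0998. This measure favours genes that vary little between wells, as CAV1 does.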

How the data were processed

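RNA was measured by stranded polyA sequencing of 8 wells, 4 control and 4 stretch. The authors deposited raw read counts per gene, taken over exons. FastQC 0.11.8, Trim Galore 0.6.5, STAR 2.7.3a, Subread and featureCounts are named in the submitters' processing notes. The build and the settings for strand and shared reads are not given in the sources used here. All 8 count columns matched a sample by library name. Of 37952 symbols, 37291 matched the RefSeq table of UU_Cfam_GSD_1.0, all with equal start and end, and that table gave the chromosome names. No sequence was used here.

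Counts were tested with edgeR 4.0.16 in R 4.3.3 (glmQLFit with robust estimation, glmQLFTest, TMM factors, filterByExpr with a minimum count of 10 and total of 15). P-values were two-sided and adjusted over all tested genes by the Benjamini-Hochberg method at 0.05. The model had a stretch term, and the replicate block was fitted beside it. Same-numbered wells deviated together from their group means (correlations across genes of 0.108 to 0.328 over the 4 numbers, taken from the titles). Wells of different numbers were not compared in this way. The correlations therefore cannot tell pairing by number from a coarser grouping of wells. The labels do not say what a number shares. The block lowered the biological coefficient of variation from 9.43% to 6.12%. TPM used the exon length in the table. Ratios per well were compared by exact permutation. Wells of a group differed by more than sampling noise (chi-square per degree of freedom from 5.14 to 23.6), so all were kept. The fit was tested on simulated data. Alternatives were DESeq2 1.42.0, limma-voom (limma 3.58.1), other scaling factors and count filters, blocks, sets of replicates and the omission of wells or pairs.

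All 7 members were named, up to 3 genes of each other list by smallest p (CLTC, FLNA, DNM2 and genes at 0 or few counts were added after their values were seen), the 3 genes nearest to CAV1 and the neighbours of the caveolin pair. Of the cell type markers, KRT8, KRT18, EPCAM, CDH16, ACTA1 and those at 0 counts were named after their values were seen. The members, lists and tests were chosen with earlier results of these data known. Figures used matplotlib 3.10.9 (Python 3.11.15).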

Additional observations from a re-analysis of the deposited data

Results flagged for a closer look

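In 2 of the 14 groups of 4 wells examined (7 genes, 2 groups), a single well stood apart from its group under Dixon's test at the 95% level. Chance would give about 0.7 such groups. For CAVIN1, stretch replicate 3 had 195 CPM against 162 to 166 CPM in the rest. For EHD2, control replicate 3 had 46.9 CPM against 33.0 to 34.9 CPM in the rest. Both wells carry replicate number 3, where CAVIN1 was also the highest of the control wells (185 CPM) and EHD2 the highest of the stretch wells (41.7 CPM). Stretch replicate 3 held 28912414 counts and control replicate 3 held 29950328, within the range of the 8 wells. No cause was tested.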

How the results depend on the processing

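Without a block the number of members called stayed at 0 under DESeq2, limma-voom, the other scalings and filters and the omission of any well. It was 1 with the replicate block, 1 with DESeq2 and the replicate block, 1 without any 1 pair under the block, 0 with the block of 2 levels, 0 within replicates 1 and 2, and 2 within replicates 3 and 4. Over all genes the count of 0 became 40 with DESeq2, 11 with no low-count filter, 102 with the replicate block, 58 with the block of 2 levels, 145 with DESeq2 and the replicate block, 51 within replicates 1 and 2, 25 within replicates 3 and 4, 0 to 12 without 1 well, and 43 to 186 without 1 pair under the block. The 12 calls came without control replicate 3.

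CAVIN2 was higher in all 24 alternatives, with log2 changes of 0.37 to 0.63 without 1 well and 0.38 to 0.53 without 1 pair under the block. It passed at 0.48 with the replicate block, 0.47 with DESeq2 and that block, and 0.55 within replicates 3 and 4. CAVIN3 passed at -0.40 within replicates 3 and 4. The small changes of the other members turned sign in places. Within replicates 1 and 2 the log2 change was -0.0057 for CAV1 and 0.14 for CAVIN3, and within replicates 3 and 4 it was 0.065 for CAV2 and -0.12 for EHD2. Without 1 well or pair the ranges were -0.014 to 0.023 for CAV1, -0.061 to 0.0070 for CAV2, -0.025 to 0.091 for CAVIN1, -0.26 to 0.0031 for CAVIN3, -0.036 to 0.16 for EHD2 and -0.068 to 0.0062 for PACSIN2. The log2 ratios to CAV1 turned sign within replicates 3 and 4 for CAV2 (0.054), CAVIN1 (-0.0063) and EHD2 (-0.13), and within replicates 1 and 2 for CAVIN3 (0.15). Without 1 well they ranged from -0.066 to 0.00098 for CAV2, -0.010 to 0.087 for CAVIN1, 0.37 to 0.62 for CAVIN2, -0.20 to -0.049 for CAVIN3, -0.013 to 0.15 for EHD2 and -0.089 to -0.0063 for PACSIN2. The cause was not tested. With 4 complete pairs, the replicate block gives the same mean log2 ratio by construction (0.47 for CAVIN2), so it is no check of that mean. The error within pairs was not computed for the ratios. All levels in control wells moved by less than 1 SD. Leaving out 1 of 4 wells cannot move a mean by 1 SD, so that outcome was fixed in advance. TPM over the tested genes alone only rescales each well, and took CAV1 from 2950 to 2954. Members had 869 counts or more per well. Their counting error was smaller than the spread between wells, by little for PACSIN2 in control wells.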

Other observations

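The same measure of likeness was applied to CAVIN2 after its values were seen. The 3 genes with the smallest root mean square gap to its centred log2 CPM over the 8 wells were PLAU (0.143), SH2D5 (0.146) and SPRY1 (0.15), where the median gene had 0.393. PLAU encodes the urokinase plasminogen activator and SPRY1 a feedback inhibitor of receptor tyrosine kinase signalling. A gene picked for likeness to CAVIN2 over all 8 wells shares its direction by selection, so the following values are a description. Their log2 changes after stretch were 0.48, 0.64 and 0.40 without the block, and none of the 3 passed in edgeR's test with the replicate block (adjusted p = 0.156, 0.0635 and 0.057). The other 6 caveolae genes ranked from 1765 (CAVIN1) to 9109 (CAVIN3) of 9904 by this gap.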
